A study of Homo sapiens with 8 samples.

Results

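The hypoxia-inducible factor (HIF) subunits, the oxygen sensors that act on them and their feedback regulators were followed across cell line and vector. The genes were chosen by symbol from a list fixed for this work, and all 10 of the 10 listed (HIF1A, EPAS1, ARNT, EGLN1, EGLN2, EGLN3, VHL, HIF1AN, CITED2 and BHLHE40) were among the 13771 genes measured. MCF10A, a non-tumorigenic human breast epithelial line, and DCIS.COM, a line of the same lineage whose grafts form lesions like ductal carcinoma in situ, had been transduced with a lentiviral pCDH vector. The vector either carried the long non-coding RNA HOTAIR (pCDH-HOTAIR) or was empty (pCDH-empty), and all cells, controls included, had gone through selection in puromycin at 10 µg/ml. RNA-seq had been done on 2 libraries for each of these 4 groups. MCF10A medium held epidermal growth factor, hydrocortisone, insulin and cholera toxin beside horse serum, whereas the DCIS.COM medium is given with horse serum alone, so that cell line and medium cannot be told apart. HOTAIR here was expressed from the integrated vector, and no source used here says whether a line was 1 clone or a pool.

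HIF is a transcription factor made of an oxygen-regulated alpha subunit and a stable beta subunit. In the presence of oxygen the prolyl hydroxylases mark the alpha subunit, VHL binds the marked protein and directs it to the proteasome, and the asparaginyl hydroxylase blocks its coactivator contact. Most of this control acts on protein, which these RNA values do not measure. Several of the sensors and regulators are themselves HIF target genes, among them EGLN3, EGLN1, CITED2 and BHLHE40.

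Recovered depth ran from 19306864 to 34884841 reads per library. HOTAIR itself was read 45 and 40 times in MCF10A pCDH-empty against 4614 and 4827 times in pCDH-HOTAIR, and 119 and 140 times against 7166 and 6385 times in DCIS.COM, so the libraries matched their vector labels. All 7 epithelial markers were measured in both lines. Of the other lists, the leukocyte genes CD14 and CD68 and the endothelial gene PECAM1 were measured, while the defining markers PTPRC, CD3E, CDH5, VWF and KDR and the 4 fibroblast genes COL3A1, PDGFRB, DCN and LUM were not among the genes in the table. The pair of DCIS.COM pCDH-empty libraries lay further apart than any other pair of 1 group, at a Euclidean distance of 46.4 over all log2 values. DCIS.COM pCDH-empty 2 lay 30.1 and 28.7 from the pCDH-HOTAIR libraries of its line, closer than to its own replicate. Values without either of them are given for the genes they moved most.

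The alpha subunits were described first. Their promoter windows, the 250 bases before the RefSeq transcription start, are shown because both hold 1 copy of the core to which HIF binds. Capitals mark ACGTG or GCGTG on either strand, a description of letters and not of binding. The windows are on GRCh38.p14, at chr14:61695263-61695512 (plus strand) for HIF1A and chr2:46297157-46297406 (plus strand) for EPAS1.
HIF1A: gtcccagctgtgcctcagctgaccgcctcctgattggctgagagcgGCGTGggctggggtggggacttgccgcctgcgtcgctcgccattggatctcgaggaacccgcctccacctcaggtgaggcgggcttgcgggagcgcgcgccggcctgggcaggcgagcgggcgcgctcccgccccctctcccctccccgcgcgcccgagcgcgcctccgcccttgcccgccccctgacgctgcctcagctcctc
EPAS1: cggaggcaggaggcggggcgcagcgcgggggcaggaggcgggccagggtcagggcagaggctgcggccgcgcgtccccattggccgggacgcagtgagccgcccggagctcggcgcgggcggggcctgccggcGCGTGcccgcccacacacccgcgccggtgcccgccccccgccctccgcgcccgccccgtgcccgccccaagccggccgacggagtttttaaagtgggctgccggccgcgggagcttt
The GCGTG copy of HIF1A began 204 bases before the start and that of EPAS1 117 bases before it. Such a match was present in 57.1% of the 10679 promoters of measured genes that had a window.

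HIF1A, the broadly expressed alpha subunit (GRCh37 chromosome 14, 62162231 to 62214977, plus strand), was the most abundant of the 10 genes per kb of exons in every group. Its log2 CPM (read counts scaled to library size) were 9.62 and 9.63 in MCF10A pCDH-empty, 9.75 and 9.81 in MCF10A pCDH-HOTAIR, 9.61 and 9.71 in DCIS.COM pCDH-empty, and 9.63 and 9.66 in DCIS.COM pCDH-HOTAIR. All 8 libraries thus lay within a narrow band, with the MCF10A pCDH-HOTAIR pair above the other three groups. DCIS.COM pCDH-empty differed from MCF10A pCDH-empty by a log2 fold change of 0.04 (95% interval -0.12 to 0.19, limma adjusted p = 0.645), an interval under 1.5-fold on both sides. Correction of each library for GC content, which is 36.4% in the longest HIF1A transcript, moved this difference to 0.40 (limma adjusted p = 0.00774), still under 1.5-fold. HIF1A exons overlap those of the antisense RNAs HIF1A-AS1 and HIF1A-AS3, and the strand setting of the counting is not given in the sources used here, so their reads cannot be told apart.

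EPAS1, the alpha subunit HIF-2 alpha (GRCh37 chromosome 2, 46520806 to 46613836, plus strand), was lower in DCIS.COM. Its log2 CPM values were 7.34 and 7.27 in MCF10A pCDH-empty and 7.51 and 7.47 in MCF10A pCDH-HOTAIR. In DCIS.COM they were 6.43 and 6.24 with pCDH-empty and 6.004 and 6.11 with pCDH-HOTAIR. Every MCF10A library lay above every DCIS.COM library. EPAS1 was 1.96-fold lower in DCIS.COM with the empty vector (95% interval 1.72 to 2.23, limma adjusted p = 1.48e-05) and 2.71-fold lower with the HOTAIR vector (2.38 to 3.08, adjusted p = 1.58e-06). With the empty vector the log2 difference of -0.97 was -1.07 without DCIS.COM pCDH-empty 1 and -0.88 without DCIS.COM pCDH-empty 2. Per kb of exons, EPAS1 made up 12.4% ± 0.417 (SD, n = 2) of the summed HIF1A and EPAS1 level in MCF10A pCDH-empty and 12.7% ± 0.559 in MCF10A pCDH-HOTAIR. In DCIS.COM it made up 6.61% ± 0.888 with pCDH-empty and 5.55% ± 0.192 with pCDH-HOTAIR. The 3 other genes whose pattern over the 8 libraries was closest to that of EPAS1, by root mean square difference of log2 CPM after removal of each gene's mean, were PTCHD3P1 (0.0534), GFOD1 (0.0598) and METRNL (0.0599), a description among 12212 genes.

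ARNT, the beta subunit shared by both alpha subunits (GRCh37 chromosome 1, 150782189 to 150849184, minus strand), had log2 CPM values of 5.44 and 5.40 in MCF10A pCDH-empty and 5.43 and 5.56 in MCF10A pCDH-HOTAIR. The DCIS.COM values were 5.21 and 5.12 with pCDH-empty and 5.18 and 5.16 with pCDH-HOTAIR, below all MCF10A libraries. The difference between the lines was small, at -0.26 with the empty vector (95% interval -0.43 to -0.08, limma adjusted p = 0.0154) and -0.32 with the HOTAIR vector (-0.50 to -0.15, adjusted p = 0.00581). ARNT2, the second ARNT-type beta subunit, was much scarcer than ARNT per kb of exons, with 0.724 against 6.64 CPM per kb in MCF10A pCDH-empty.

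The prolyl hydroxylases came next. Their promoter windows on GRCh38.p14 are printed because EGLN1 and EGLN2 hold an ACGTG core while EGLN3, whose level varied most, holds neither motif in this window. They lie at chr1:231422288-231422537 (minus strand) for EGLN1, chr19:40798941-40799190 (plus strand) for EGLN2 and chr14:33951075-33951324 (minus strand) for EGLN3.
EGLN1: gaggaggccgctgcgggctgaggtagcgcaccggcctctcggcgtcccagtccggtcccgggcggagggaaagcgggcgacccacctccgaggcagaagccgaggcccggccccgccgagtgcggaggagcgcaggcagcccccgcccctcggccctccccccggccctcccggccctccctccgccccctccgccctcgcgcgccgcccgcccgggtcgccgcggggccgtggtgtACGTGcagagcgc
EGLN2: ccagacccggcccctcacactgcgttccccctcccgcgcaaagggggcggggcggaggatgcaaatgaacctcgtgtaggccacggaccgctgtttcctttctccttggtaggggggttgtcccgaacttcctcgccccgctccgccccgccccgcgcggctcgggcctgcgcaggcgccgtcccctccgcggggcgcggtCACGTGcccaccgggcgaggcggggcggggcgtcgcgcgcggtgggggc
EGLN3: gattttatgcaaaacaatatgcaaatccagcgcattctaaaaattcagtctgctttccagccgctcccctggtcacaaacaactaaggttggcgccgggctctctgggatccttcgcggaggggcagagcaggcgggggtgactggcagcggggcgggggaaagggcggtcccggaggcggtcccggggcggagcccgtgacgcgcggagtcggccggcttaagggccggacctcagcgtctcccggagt
In EGLN2 the letters read CACGTG, which counts as 2 overlapping matches, 1 on each strand. Of the 9 genes with a window, 6 had at least 1 match, the others being CITED2 and BHLHE40, while ARNT, EGLN3 and HIF1AN had none. VHL had no entry in the promoter table. The EGLN3 window lies before the RefSeq start, which is inside the wider annotated span given below, so it is not the sequence upstream of that span.

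EGLN1, the main prolyl hydroxylase (PHD2) for HIF1A (GRCh37 chromosome 1, 231499497 to 231558033, minus strand), had log2 CPM values of 6.69 and 6.72 in MCF10A pCDH-empty and 6.92 and 6.88 in MCF10A pCDH-HOTAIR. In DCIS.COM it measured 6.57 and 6.92 with pCDH-empty and 7.02 and 7.03 with pCDH-HOTAIR. The pCDH-HOTAIR libraries lay above the pCDH-empty libraries in each line, and the DCIS.COM pCDH-empty pair was the most spread. Between the lines EGLN1 differed by 0.04 with the empty vector (95% interval -0.20 to 0.28, limma adjusted p = 0.765) and by 0.13 with the HOTAIR vector (-0.12 to 0.37, adjusted p = 0.318). The former turned on the control libraries, at 0.21 (adjusted p = 0.00189) without DCIS.COM pCDH-empty 1 and -0.14 (adjusted p = 0.0166) without DCIS.COM pCDH-empty 2.

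EGLN2, the prolyl hydroxylase PHD1 (GRCh37 chromosome 19, 41304901 to 41314339, plus strand), was higher in DCIS.COM. Its log2 CPM values were 5.70 and 5.59 in MCF10A pCDH-empty, 5.63 and 5.66 in MCF10A pCDH-HOTAIR, 6.04 and 6.24 in DCIS.COM pCDH-empty, and 6.21 and 6.24 in DCIS.COM pCDH-HOTAIR. The lines did not overlap, and the vectors overlapped in both lines. The difference between the lines was 0.49 with the empty vector (95% interval 0.30 to 0.69, limma adjusted p = 0.000908) and 0.58 with the HOTAIR vector (0.39 to 0.77, adjusted p = 0.000380). With the HOTAIR vector the value sat at the edge of the 1.5-fold threshold, and reached it under median centring (0.60), GC correction (0.61) and limma-voom on recovered reads (0.60). With the empty vector it reached it when DCIS.COM pCDH-empty 1 was left out (0.59). EGLN2 exons overlap those of the readthrough transcript RAB4B-EGLN2 and of ENSG00000268797, neither among the genes measured. Exons also overlap for EGLN1 (ENSG00000287856, same strand), VHL (ENSG00000287086, opposite strand) and BHLHE40 (BHLHE40-AS1, opposite strand). These overlapping genes were not among the genes measured either.

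EGLN3, the prolyl hydroxylase PHD3 (GRCh37 chromosome 14, 34393433 to 34931980, minus strand), showed the widest range of the 10 genes. Its values were 35.4 and 38.6 CPM (1103 and 1026 reads) in MCF10A pCDH-empty and 60.0 and 56.5 CPM (1163 and 1130 reads) in MCF10A pCDH-HOTAIR. In DCIS.COM it measured 4.76 and 6.38 CPM (143 and 171 reads) with pCDH-empty and 7.20 and 7.33 CPM (256 and 246 reads) with pCDH-HOTAIR. The lowest MCF10A library was thus well above the highest DCIS.COM library, and within each line both pCDH-HOTAIR libraries lay above both pCDH-empty libraries. EGLN3 was 6.63-fold lower in DCIS.COM with the empty vector (95% interval 5.33 to 8.25, limma adjusted p = 7.80e-07) and 7.95-fold lower with the HOTAIR vector (6.39 to 9.89, adjusted p = 4.68e-07). With the empty vector the log2 difference of -2.73 was -2.52 without DCIS.COM pCDH-empty 1 and -2.94 without DCIS.COM pCDH-empty 2. With the empty vector, 9.22% of all genes differed more between the lines than EGLN3 did.

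Set against each other per kb of exons, EGLN1 stood first among the prolyl hydroxylases in all 4 groups. EGLN3 made up 15.7% ± 0.891 (SD, n = 2) of the summed EGLN1, EGLN2 and EGLN3 level in MCF10A pCDH-empty and 21.0% ± 0.551 in MCF10A pCDH-HOTAIR. In DCIS.COM its share was 2.42% ± 0.140 with pCDH-empty and 2.72% ± 0.00458 with pCDH-HOTAIR. These shares depend on the gene length used, and with the longest annotated transcript they were 26.0%, 33.6%, 4.38% and 4.96% in the same order. The annotated EGLN3 span also covers SPTSSA on the same strand, although no exons of these genes overlap. The genes closest to EGLN3 in pattern were MUC20 (root mean square difference 0.190), CXCL8 (0.204) and HAS2 (0.214), and those closest to HIF1A were SLC25A6 (0.0378), RBM6 (0.0395) and RPL37 (0.0412), over the same 8 libraries.

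**Figure D1:**
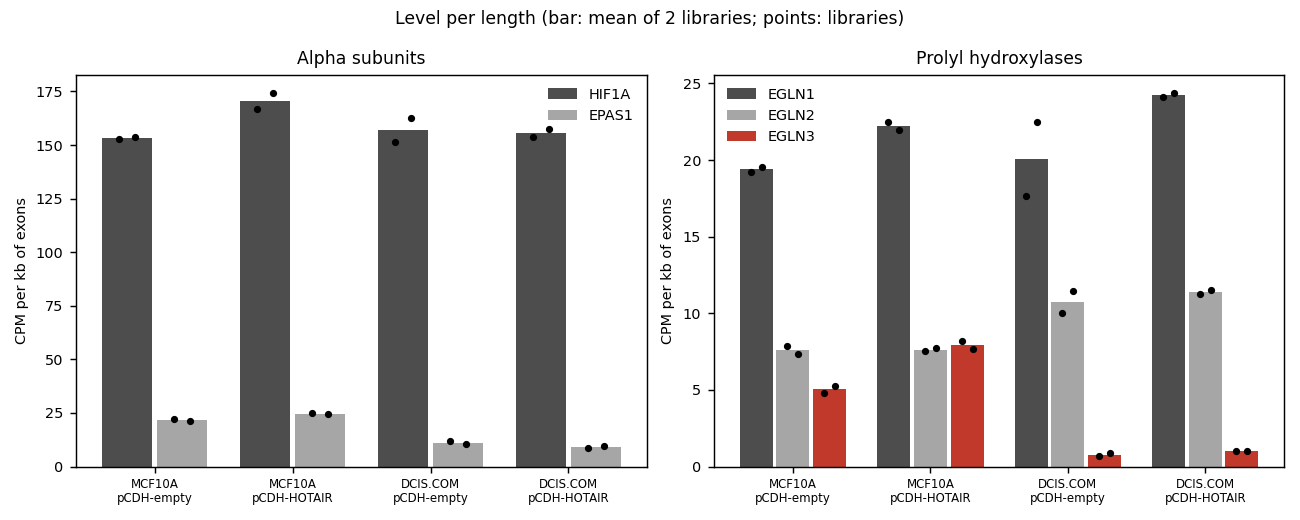
CPM per kb of exons (y axis) of the alpha subunits (left) and the prolyl hydroxylases (right) in the 4 groups (x axis), with bars for the mean of 2 libraries and points for single libraries. HIF1A lies between 153 and 170 CPM per kb in group means, whereas EGLN3 falls from 5.03 and 7.92 in MCF10A to 0.758 and 0.997 in DCIS.COM.

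VHL, the substrate-binding subunit of the ubiquitin ligase that recognizes hydroxylated alpha subunits (GRCh37 chromosome 3, 10183462 to 10195351, plus strand), had log2 CPM values of 5.74 and 5.71 in MCF10A pCDH-empty and 5.74 and 5.73 in MCF10A pCDH-HOTAIR. In DCIS.COM they were 5.28 and 5.52 with pCDH-empty and 5.60 and 5.48 with pCDH-HOTAIR, below MCF10A in every library. The difference between the lines was -0.32 with the empty vector (limma adjusted p = 0.0140) and -0.20 with the HOTAIR vector (adjusted p = 0.0947). The former was -0.20 (adjusted p = 0.0178) without DCIS.COM pCDH-empty 1 and -0.45 (adjusted p = 0.000195) without DCIS.COM pCDH-empty 2.

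HIF1AN, the asparaginyl hydroxylase FIH (GRCh37 chromosome 10, 102288829 to 102319755, plus strand), measured 5.47 and 5.57 log2 CPM in MCF10A pCDH-empty, 5.56 and 5.63 in MCF10A pCDH-HOTAIR, 6.02 and 5.87 in DCIS.COM pCDH-empty, and 5.86 and 5.86 in DCIS.COM pCDH-HOTAIR. All DCIS.COM libraries were above all MCF10A libraries, by 0.42 with the empty vector (limma adjusted p = 0.00145) and 0.26 with the HOTAIR vector (adjusted p = 0.0162). Exons of HIF1AN overlap those of NDUFB8 on the opposite strand, and reads of the pair cannot be told apart without the strand setting.

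CITED2, which competes with the alpha subunits for their coactivators (GRCh37 chromosome 6, 139692944 to 139695785, minus strand), had log2 CPM values of 4.55 and 4.52 in MCF10A pCDH-empty, 4.89 and 4.55 in MCF10A pCDH-HOTAIR, 4.15 and 4.29 in DCIS.COM pCDH-empty, and 4.36 and 4.36 in DCIS.COM pCDH-HOTAIR. BHLHE40, a transcriptional repressor induced by HIF (GRCh37 chromosome 3, 5021122 to 5027008, plus strand), measured 128 and 135 CPM in MCF10A pCDH-empty, 142 and 148 in MCF10A pCDH-HOTAIR, 114 and 99.9 in DCIS.COM pCDH-empty, and 129 and 122 in DCIS.COM pCDH-HOTAIR. CITED2 was lower in every DCIS.COM library than in any MCF10A library, whereas BHLHE40 in DCIS.COM pCDH-HOTAIR overlapped MCF10A pCDH-empty. With the empty vector the differences between the lines were -0.31 for CITED2 (limma adjusted p = 0.0457) and -0.30 for BHLHE40 (adjusted p = 0.0102), and with the HOTAIR vector they were -0.36 (adjusted p = 0.0262) and -0.20 (adjusted p = 0.0524). The CITED2 value with the HOTAIR vector turned on the spread MCF10A pCDH-HOTAIR pair, at -0.19 (adjusted p = 0.178) without replicate 1 and -0.53 (adjusted p = 0.00615) without replicate 2. For the empty-vector lines BHLHE40 was -0.39 without DCIS.COM pCDH-empty 1 and -0.20 without DCIS.COM pCDH-empty 2, and CITED2 was -0.24 (adjusted p = 0.113) and -0.38 (adjusted p = 0.0207).

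**Figure D2:**
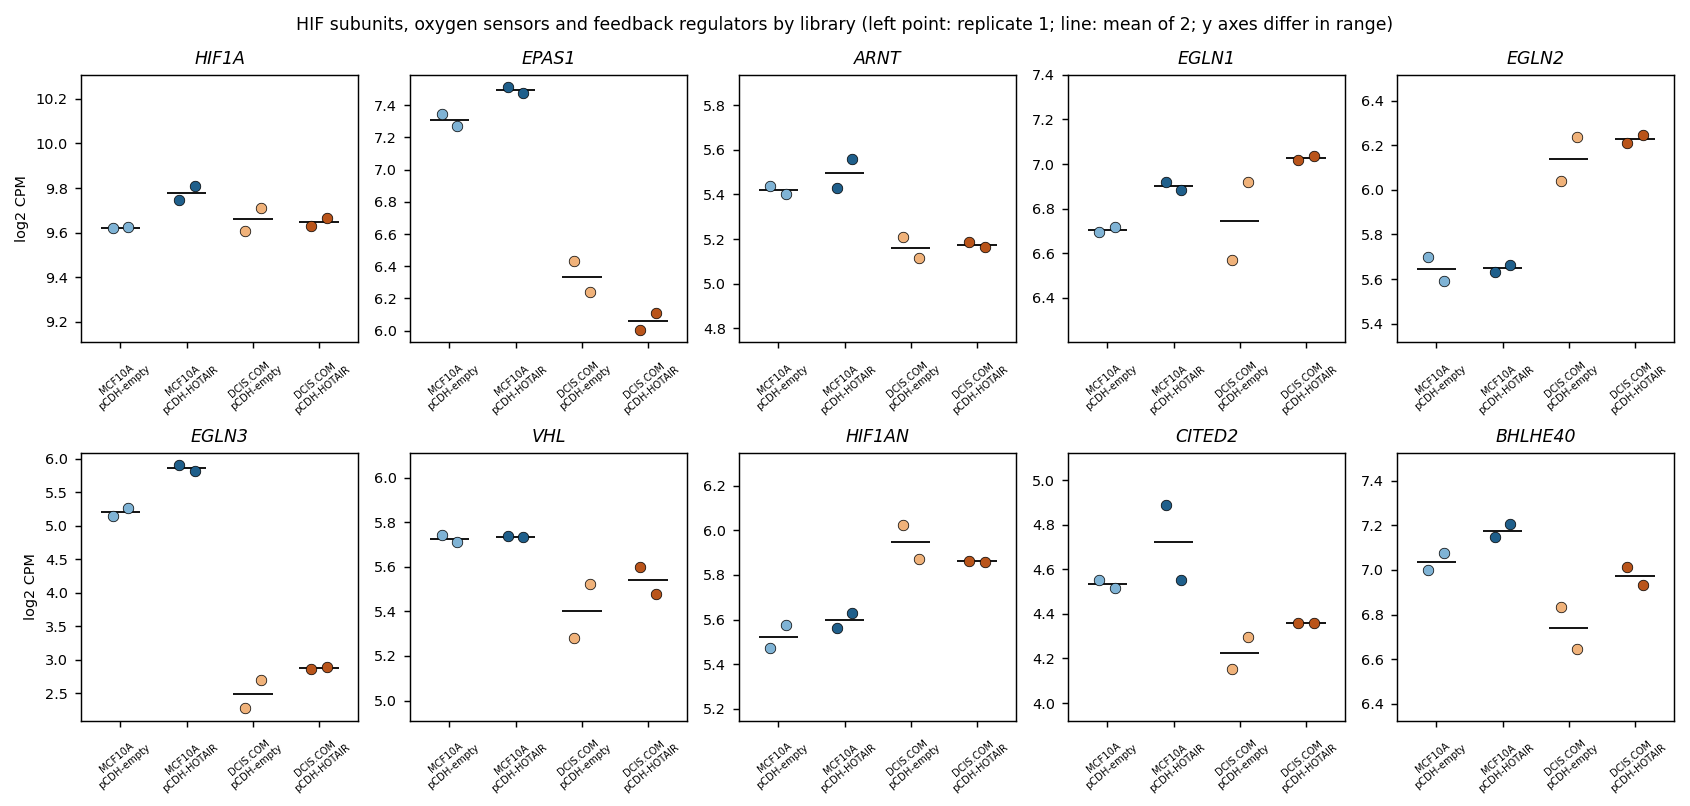
Log2 CPM (y axis, range differs between panels) of the 10 genes in each of the 8 libraries, grouped by cell line and vector (x axis), with replicate 1 on the left and a line at the mean of 2. EPAS1 and EGLN3 separate the lines by the widest gaps, and HIF1A stays between 9.61 and 9.81.

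Between the lines, calls needed a limma adjusted p under 0.05 together with a difference of 1.5-fold or more. With the empty vector 2 of the 10 genes were called, EPAS1 and EGLN3, both lower in DCIS.COM, against 46.3% of all genes in either direction and 23.8% lower. By adjusted p alone 8 of the 10 passed (68.2% of all genes), 6 lower (34.4%) and 2 higher (33.8%). Of these, ARNT, VHL, BHLHE40 and CITED2 lost the adjusted threshold under at least 1 alternative, with highest limma adjusted p values of 0.0825, 0.0739, 0.0718 and 0.159. With the HOTAIR vector the same 2 genes were called, against 43.7% of all genes and 21.7% lower, and 6 passed by adjusted p alone (65.5%), 4 lower (32.7%) and 2 higher (32.8%). There ARNT, HIF1AN and CITED2 lost the adjusted threshold under at least 1 alternative, with highest limma adjusted p values of 0.0526, 0.0978 and 0.178. The libraries of the lines did not overlap for 6 lower (40.9% of all genes) and 2 higher genes (40.7%) with the empty vector, and for 7 lower (44.3%) and 3 higher genes (44.8%) with the HOTAIR vector. The median absolute log2 difference of the 10 genes was 0.32 with the empty vector, beside 0.54 over all genes, and 0.29 beside 0.50 with the HOTAIR vector. In bulk RNA, fewer cells with a transcript and less RNA per cell cannot be told apart. Summed epithelial markers also differed, at 9958 to 11202 CPM in MCF10A and 3669 to 4372 CPM in DCIS.COM. Their members moved in both directions, since with the empty vector KRT5, KRT14, KRT17 and CDH1 had lower means in DCIS.COM (KRT5 4359 and 714 CPM in MCF10A and DCIS.COM), whereas EPCAM (67.7 and 342 CPM), KRT18 (585 and 1985 CPM) and TP63 (12.8 and 21.7 CPM) had higher ones. The sum of CD14 and CD68 was 41.4 to 47.1 CPM in MCF10A and 5.63 to 6.55 CPM in DCIS.COM, and PECAM1 went the other way, from 1.70 to 2.69 CPM in MCF10A to 10.1 to 13.3 CPM in DCIS.COM. The part of these markers in the differences was not tested.

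**Figure D3:**
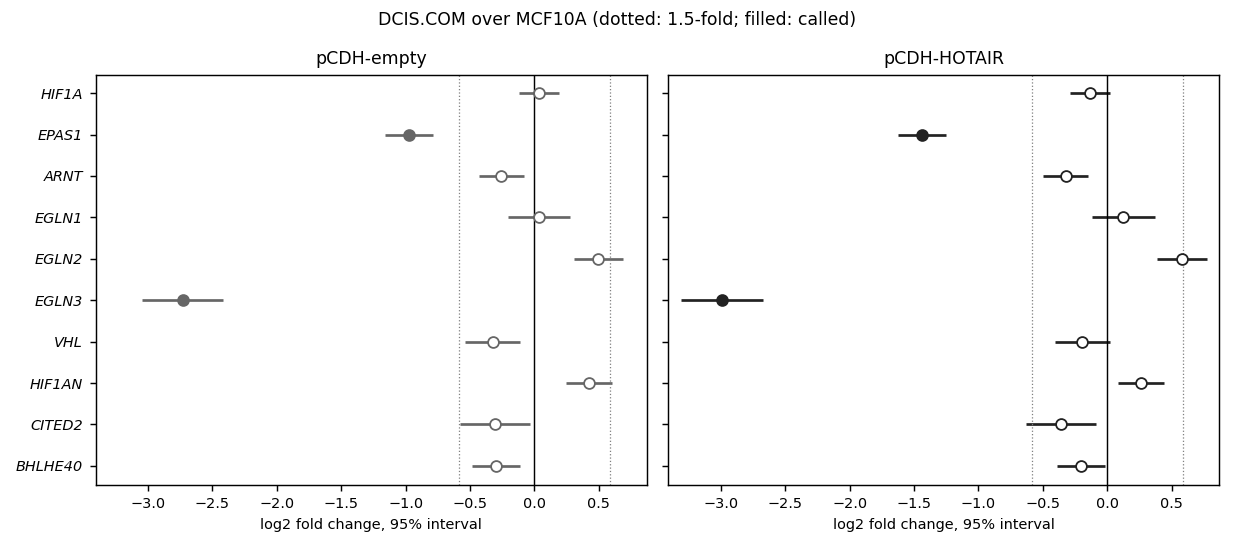
Log2 fold change of DCIS.COM over MCF10A (x axis) with its unadjusted 95% interval for the 10 genes (y axis), with pCDH-empty (left) and pCDH-HOTAIR (right), where dotted lines mark 1.5-fold and filled points mark calls. Only EGLN3 (-2.73 and -2.99) and EPAS1 (-0.97 and -1.44) lie past the threshold on both sides.

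The comparison of pCDH-HOTAIR with pCDH-empty asked whether HOTAIR altered the transcripts of the oxygen-sensing machinery. None of the 10 genes was called in MCF10A by limma, where 0.0218% of all genes were called, and none in DCIS.COM, where 0.0871% were. At an unadjusted p under 0.05 the counts were 2 of 10 in MCF10A, against 7.28% of all genes, and 4 of 10 in DCIS.COM, against 17.5%. On simulated libraries of this size, 63.2% of genes changed 1.5-fold passed a limma adjusted p under 0.05 in MCF10A and 61.5% in DCIS.COM. These shares left out the 1.5-fold that a call also needs, and the simulation gave all groups the same spread. They are therefore no measure of how often such a change would be called here. An exact permutation test of a single gene, 2 libraries against 2, cannot go below p = 0.333. No source used here says that the libraries of a group came from separate cultures, so that p-values measure only the spread between these libraries, which may be technical.

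In MCF10A all 10 log2 fold changes were above 0, as were those of 47.7% of all genes, with a median of 0.15 beside -0.01 over all genes. EGLN3 had the largest value, 0.66 (95% interval 0.34 to 0.97, limma adjusted p = 0.247), which passed the adjusted threshold only when DCIS.COM pCDH-empty 1 (adjusted p = 0.00632) or DCIS.COM pCDH-empty 2 (adjusted p = 0.00679) was left out of the shared estimate of spread. EGLN1 followed with 0.19 (-0.05 to 0.44, adjusted p = 0.788), and passed by adjusted p alone without the same libraries (0.0385 and 0.0398). Next came EPAS1 with 0.19 (0.00 to 0.37, adjusted p = 0.682) and HIF1A with 0.15 (-0.00 to 0.31, adjusted p = 0.692). For 6 of the 10 genes (EGLN3, EGLN1, EPAS1, HIF1A, BHLHE40 and CITED2) both pCDH-HOTAIR libraries lay above both pCDH-empty libraries, against 22.5% of all genes, and for none below, against 24.8%. EGLN2 (0.00) and VHL (0.01) were nearest to 0, and their sign turned under GC correction (-0.03 and -0.00118).

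In DCIS.COM 7 of the 10 values were above 0, against 52% of all genes, with a median of 0.11 beside 0.01. EGLN3 was 0.39 (95% interval 0.08 to 0.71, limma adjusted p = 0.247), EGLN1 0.28 (0.04 to 0.52, adjusted p = 0.261) and BHLHE40 0.23 (0.05 to 0.42, adjusted p = 0.246). EPAS1 had the opposite sign, at -0.28 (-0.46 to -0.09, adjusted p = 0.222). Both HOTAIR libraries lay above both control libraries for 4 genes (EGLN3, EGLN1, BHLHE40 and CITED2), against 24.7% of all genes, and below them for 2 (EPAS1 and HIF1AN), against 24.5%. These values turned on the pair of control libraries. Without DCIS.COM pCDH-empty 2, EGLN3 was 0.60 and EGLN1 was 0.46, whereas without DCIS.COM pCDH-empty 1 they were 0.19 and 0.11. EPAS1 was -0.37 without the former and -0.18 without the latter. VHL and EGLN2 were 0.26 and 0.19 without DCIS.COM pCDH-empty 2, and 0.015 and -0.010 without DCIS.COM pCDH-empty 1. BHLHE40 moved the other way, at 0.33 without DCIS.COM pCDH-empty 1 and 0.14 without DCIS.COM pCDH-empty 2. HIF1A, at -0.01 (-0.17 to 0.14), moved to -0.27 (adjusted p = 0.197) under GC correction.

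**Figure D4:**
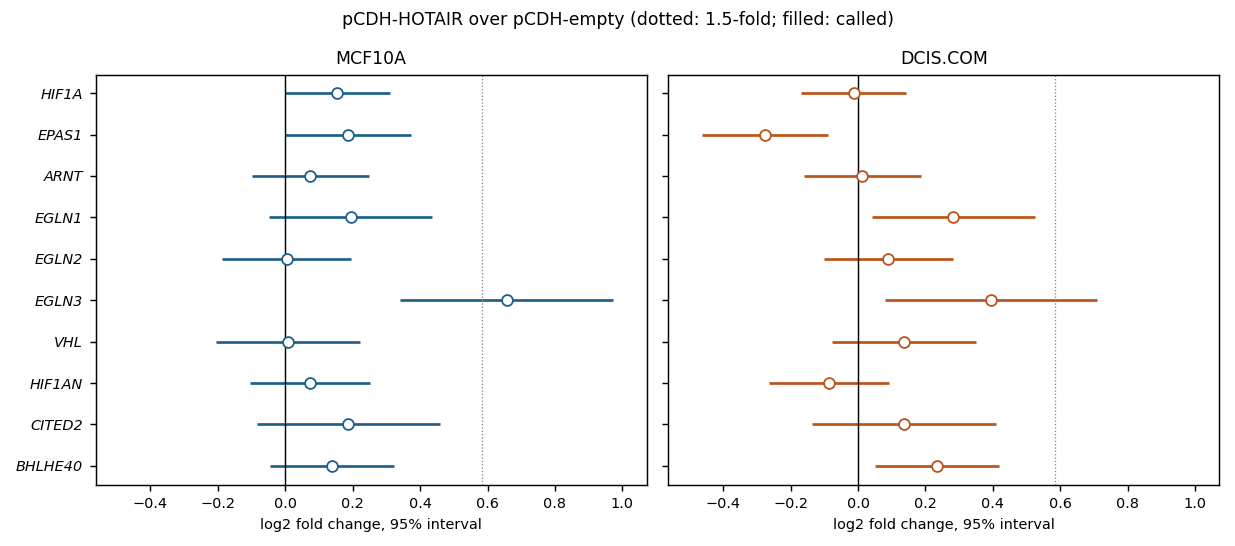
Log2 fold change of pCDH-HOTAIR over pCDH-empty (x axis) with its unadjusted 95% interval for the 10 genes (y axis) in MCF10A (left) and DCIS.COM (right), where the dotted line marks 1.5-fold and open points were not called. EGLN3 lies furthest from 0 in both lines (0.66 and 0.39), and EPAS1 lies above 0 in MCF10A and below it in DCIS.COM.

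The difference in HOTAIR effect between the lines was tested as an interaction. EPAS1 gave the largest value, -0.46 (95% interval -0.73 to -0.20, limma adjusted p = 0.307), and was the only one of the 10 under an unadjusted p of 0.05, as 10.5% of all genes were. None of the 10 passed the adjusted threshold, which 0.0436% of all genes did. Without DCIS.COM pCDH-empty 2 the difference was -0.56 for EPAS1, 0.26 for EGLN1 and 0.25 for VHL. Without DCIS.COM pCDH-empty 1 it was -0.37, -0.086 and 0.0055 for the same genes.

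Of 23 listed partners of the pathway, 22 were measured, HIF3A not being among the genes listed. None was called by limma with HOTAIR in either line, beside 0.0218% of all genes in MCF10A and 0.0871% in DCIS.COM. Their medians were -0.00 in MCF10A and -0.09 in DCIS.COM. The latter was -0.010 without DCIS.COM pCDH-empty 1 and -0.17 without DCIS.COM pCDH-empty 2. Between the lines with the empty vector 9 of 22 were called, beside 46.3% of all genes, and 8 of them were higher in DCIS.COM, beside 22.5%. Their median difference was 0.26, and it was 0.23 without DCIS.COM pCDH-empty 1 and 0.32 without DCIS.COM pCDH-empty 2. With the HOTAIR vector 7 of 22 were called between the lines, beside 43.7% of all genes. There 12 of the differences were above 0 and 10 below, with a median of 0.14. Among the partners of VHL in the ligase, the adaptor ELOB was higher in DCIS.COM by 0.98 (adjusted p = 3.45e-05) with the empty vector and 0.68 (adjusted p = 0.000326) with the HOTAIR vector. The other adaptor ELOC differed by -0.07 (adjusted p = 0.559), the scaffold CUL2 by -0.16 (adjusted p = 0.151) and the RING subunit RBX1 by -0.33 (adjusted p = 0.0793) with the empty vector by limma. RBX1 turned on the control libraries, which measured 4.89 and 5.41 log2 CPM in DCIS.COM against 5.52 and 5.44 in MCF10A. Its difference was -0.07 (adjusted p = 0.329) without DCIS.COM pCDH-empty 1, -0.59 (adjusted p = 2.48e-05) without DCIS.COM pCDH-empty 2 and 0.04 (adjusted p = 0.820) with the HOTAIR vector. CUL2 (-0.02 and -0.31) and ELOC (0.08 and -0.23) moved likewise without replicate 1 and replicate 2.

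Of the coactivators of HIF, EP300 differed between the empty-vector lines by 0.26 (limma adjusted p = 0.109) and CREBBP by 0.46 (adjusted p = 0.0109), and neither reached 1.5-fold. With the HOTAIR vector the values were -0.06 (adjusted p = 0.704) and -0.0044 (adjusted p = 0.977). CREBBP was 0.30 without DCIS.COM pCDH-empty 1 and 0.62 without DCIS.COM pCDH-empty 2, where it was called, and EP300 was 0.16 and 0.35. CITED4, a paralog of CITED2, was opposite to it in sign and was called, at 1.26 (adjusted p = 2.17e-05) with the empty vector and 1.37 (adjusted p = 1.39e-05) with the HOTAIR vector. CITED1 was higher in DCIS.COM too, with 8, 7, 1 and 4 reads in the MCF10A libraries against 74, 60, 111 and 111 reads in DCIS.COM. BHLHE41, the paralog of BHLHE40, differed by 0.26 (adjusted p = 0.0856) with the empty vector and by 0.77 (adjusted p = 0.000642) with the HOTAIR vector. The remaining partners called with the empty vector by limma were HSP90AA1 (1.65) and HSP90AB1 (0.64), chaperones of the alpha subunits, RACK1 (0.65), LIMD1 (0.62), the transmembrane prolyl hydroxylase P4HTM (0.81) and, lower in DCIS.COM, ARNTL (-1.37), a clock factor related to ARNT. HSP90AB1 (0.52), RACK1 (0.53) and LIMD1 (0.53) fell short of 1.5-fold without DCIS.COM pCDH-empty 1. With the HOTAIR vector HSP90AA1, P4HTM and ARNTL were called again, and HSP90AB1, RACK1 and LIMD1 passed by adjusted p alone.

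Of 29 listed HIF target genes, 28 were measured, SLC2A3 not being among the genes listed. Their log2 fold change with HOTAIR was above 0 for 28 of 28 in MCF10A (median 0.25) and for 22 of 28 in DCIS.COM (median 0.22), beside -0.01 and 0.01 over all genes. Those called by limma were CA9, a carbonic anhydrase, at 0.97 (adjusted p = 0.00518), and NDRG1, a stress-response gene, at 0.62 (adjusted p = 0.0412) in MCF10A, and NDRG1 at 0.61 (adjusted p = 0.0160) in DCIS.COM. Over all genes 0.0218% were called in MCF10A, 3 genes with CA9 and NDRG1 among them, and 0.0871% in DCIS.COM, 12 genes with NDRG1 among them. Not all of these calls held in other fits. In the groups compared only, 1 gene in all was called in MCF10A and 0 in DCIS.COM. NDRG1 was thus not called there in DCIS.COM, and at most 1 of CA9 and NDRG1 in MCF10A. With the replicate block MCF10A again had 1 call. The target median in DCIS.COM was 0.16 without DCIS.COM pCDH-empty 1 and 0.19 without DCIS.COM pCDH-empty 2. Earlier results of these data were known when this list was made, so neither its direction nor its calls are independent evidence. Between the lines 15 of 28 were called with the empty vector, 12 of them lower in DCIS.COM, beside 46.3% of all genes called and 23.8% called lower. With the HOTAIR vector 17 were called, 13 of them lower, beside 43.7% and 21.7%.

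**Figure D5:**
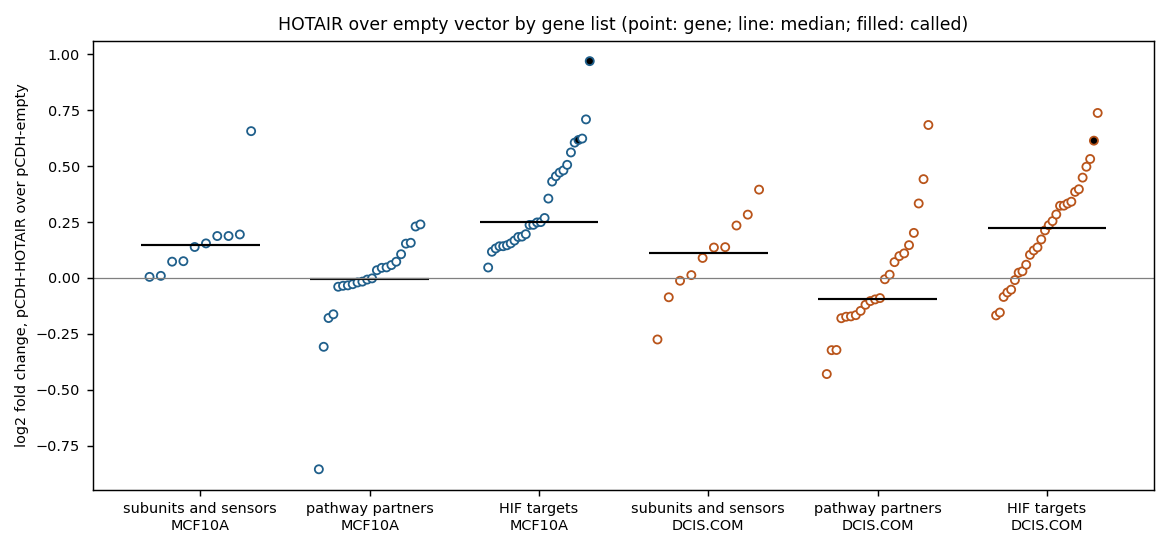
Log2 fold change of pCDH-HOTAIR over pCDH-empty (y axis) for each gene of 3 lists in each line (x axis), with a line at the median and filled points for calls. The medians of the 10 subunits, sensors and regulators (0.15 and 0.11) lie between those of the 22 partners (-0.00 and -0.09) and those of the 28 targets (0.25 and 0.22).

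Per kb of exons, the order of the 10 genes in MCF10A pCDH-empty was HIF1A (153 CPM per kb), BHLHE40 (37.4), EPAS1 (21.7), EGLN1 (19.4), VHL (10.6), CITED2 (9.03), EGLN2 (7.60), ARNT (6.64), EGLN3 (5.03) and HIF1AN (3.31). In DCIS.COM pCDH-empty it was HIF1A (157), BHLHE40 (30.4), EGLN1 (19.9), EPAS1 (11.1), EGLN2 (10.7), VHL (8.45), CITED2 (7.29), ARNT (5.55), HIF1AN (4.44) and EGLN3 (0.758). Neighbours in the MCF10A order did not overlap between libraries, whereas EPAS1 and EGLN2 overlapped in DCIS.COM. EGLN3 moved from ninth to last place and EPAS1 fell below EGLN1. With the longest transcript as length EGLN3 (3.70 on the log2 CPM per kb scale) stood above EGLN2 (3.68) and VHL (3.55) in MCF10A pCDH-empty.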

How the data were processed

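RNA from subconfluent plates had been made into ScriptSeq v2 libraries and read as paired ends. The authors aligned reads to hg19 with Rsubread, counted them on UCSC known genes with featureCounts, and deposited log2 CPM values normalized with edgeR, for 13771 genes that all exceeded 0.5 CPM in at least 2 libraries. The tool versions, the strand setting and the prior are not given in the sources used here. Taken out of the log scale, values rose in equal steps from 0.0717 CPM, and 100% of them came back as whole reads (tolerance 0.1), which gave 19306864 to 34884841 reads per library. Counting error is thus small for all 10 genes, and largest for EGLN3 in DCIS.COM. No column was left unused.

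The log2 CPM values were tested as deposited with limma 3.58.1 in R 4.3.3 (4 group means, 8 libraries, eBayes with trend). The contrasts were pCDH-HOTAIR against pCDH-empty within each line, their difference, and DCIS.COM against MCF10A with each vector. These comparisons share libraries, so their values are set side by side and not correlated. Calls required an adjusted p (Benjamini-Hochberg, over all genes) under 0.05 and 1.5-fold or more, without the fold for the difference. A 95% interval is limma's and is not adjusted. On simulated data with 200 of 13771 genes changed, 11.3% of genes passing a limma adjusted p under 0.05 alone were false in MCF10A and 6.38% in DCIS.COM. The simulation gave all genes and groups the same set dispersion, so these shares are no measure of false calls in the real libraries.

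Positions and lengths came from GENCODE release 44 on GRCh37, known for 13148 genes (95.5%), and promoters from RefSeq (GRCh38.p14), where 9 of the 10 genes matched. Levels per length divide CPM by the union of annotated exons, which may differ from the UCSC models. Python 3.11.15, numpy 2.4.6 and pandas 2.3.3 were used for the rest.

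Named genes were the 10 members, HOTAIR, the VHL complex, the coactivators, paralogs, any partner called, targets called with the vector, the 3 genes most like HIF1A, EPAS1 and EGLN3 (mean CPM of at least 2), and overlapping genes. Members and lists were chosen with earlier results of these data known. Alternatives were pseudocounts, a mean CPM of at least 2, median centring, GC correction (loess, span 0.4), no trend, groups compared only, the replicate number as a block, other thresholds, each library left out and, added after seeing the data, limma-voom on recovered reads. A planned count test on the recovered reads, with edgeR, was not run, and limma-voom on these reads was used in its place.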

Additional observations from a re-analysis of the deposited data

Results flagged for a closer look

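EPAS1 had opposite signs with HOTAIR in the lines, and neither value passed the adjusted threshold. Both pCDH-HOTAIR libraries lay above both pCDH-empty libraries in MCF10A, as for 22.5% of all genes. In DCIS.COM they lay below them, as for 24.5% of all genes. The difference between the lines was -0.46 on the log2 scale, and as an interaction in limma it did not pass the threshold (adjusted p = 0.307). With 2 libraries a group, single libraries were not tested as outliers.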

How the results depend on the processing

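Of the single-gene results for the 10 genes, 14 changed sign with a library left out. Under the other alternatives 432 kept their direction and their side of the threshold, 5 changed sign and 3 passed the threshold only there. The direction of a result could not change when the library left out was outside the groups compared. Nor could it change without the trend, in the groups compared only, with the replicate block or with the CPM minimum. With a library left out, its group is a single library assumed to vary like the others. Calls over all genes then ranged widely, as given below, so calls of the 10 genes in such fits are not read as results about them. With all libraries, 8 and 6 were called between the lines by adjusted p alone with the empty and the HOTAIR vector, and 1 and 1 at a log2 fold change of 1.5. With the HOTAIR vector the count was 3 under median centring, GC correction and limma-voom, with EGLN2 added (0.60, 0.61 and 0.60). With the longest transcript as length, the EGLN3 share was 26.0%, 33.6%, 4.38% and 4.96% in the 4 groups, and the EPAS1 share 13.4%, 13.6% and 5.998% in MCF10A pCDH-empty, MCF10A pCDH-HOTAIR and DCIS.COM pCDH-HOTAIR.

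Signs turned for values near 0. Under GC correction these were EGLN2 (-0.026) and VHL (-0.00118) with HOTAIR in MCF10A and EGLN1 between the empty-vector lines (-0.066), under limma-voom the partner median in MCF10A (0.032) and HIF1A in DCIS.COM (0.044), and under median centring ARNT in DCIS.COM (-0.00752). With a library left out, values straddled 0 in MCF10A for EGLN2 (-0.050 to 0.059), VHL (-0.00765 to 0.026) and the partner median (-0.017 to 0.00545), and in DCIS.COM for HIF1A (-0.064 to 0.038), ARNT (-0.034 to 0.059) and EGLN2 (-0.010 to 0.19). They did so for the difference between the lines for ARNT (-0.13 to 0.00219), EGLN1 (-0.086 to 0.26), EGLN2 (-0.015 to 0.18) and CITED2 (-0.22 to 0.12), and between the empty-vector lines for HIF1A (-0.015 to 0.088) and EGLN1 (-0.14 to 0.21). The cause was not tested.

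Over all genes, the 3 calls in MCF10A became 6 with a pseudocount of 1 CPM, 9 under GC correction (6 higher, 3 lower), 1 in the groups compared only and 1 to 51 with a library left out. The 12 calls in DCIS.COM became 44 under GC correction (37 higher, 7 lower), 6 without the trend, 0 in the groups compared only (limma, 1203 genes at an unadjusted p under 0.05) and 1 to 1403 with a library left out, the highest without DCIS.COM pCDH-empty 2. The 6 calls for the difference became 10 with a pseudocount of 1 CPM, 23 under GC correction, 0 without the trend or by limma-voom (1414 and 1397 genes at an unadjusted p under 0.05), and 0 to 4414 with a library left out. At a log2 fold change of 1.5 the calls were 1 in MCF10A and 1 in DCIS.COM, and between the lines they fell from 6370 to 2418 with the empty vector and from 6018 to 2357 with the HOTAIR vector.

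No pairing by replicate number was seen, as deviations from the group means correlated by 0.0661 in MCF10A and -0.0089 in DCIS.COM. Whether libraries of the same number were handled together is not given in the sources used here. With the replicate block the 10 genes had 0, 0, 0, 2 and 2 calls in the 5 comparisons, as without it, and over all genes the block gave 1 call in MCF10A, 5 in DCIS.COM and 0 for the difference (1286 genes at an unadjusted p under 0.05). The planned count test was not run.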
